A study of Mus musculus with 6 samples.

Results

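Jchain and 8 other genes of the B lineage were followed in the RNA of cells sorted from the olfactory bulbs of Sox9 KO and control mice. The 9 genes were taken by symbol from the 24421 listed in every library. They are Jchain, the B-cell genes Cd79a, Cd79b, Ms4a1 and Cd22, and the plasma cell genes Mzb1, Xbp1, Prdm1 and Irf4. Jchain had been chosen on its high level in the KO libraries of this same comparison, so its values are given as a description with no test. The question was whether the other 8 genes, and further genes of B cells and plasma cells, were also higher in KO.

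A B cell senses antigen with a surface antibody that signals through the CD79A and CD79B chains, and CD22 dampens that signal. When a B cell becomes a plasma cell, the transcription factors IRF4, BLIMP-1 (the product of Prdm1) and XBP1 build a secretory apparatus, while PAX5, which maintains B-cell identity, is shut off. The J chain made by plasma cells joins antibody units into IgM pentamers and IgA dimers, and MZB1 is an endoplasmic reticulum protein that assists antibody assembly. The healthy brain holds few B cells, and several of these genes are also used by other cells: XBP1 serves the unfolded protein response in most cell types, and CD22 and BLIMP-1 are known in myeloid cells too.

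All 6 mice were adult males that had received AAV-GFAP-iCre-P2a-TurboRFP in the olfactory bulb, a virus in which the GFAP promoter drives the recombinase iCre and the red fluorescent protein TurboRFP. The 3 KO mice were Sox9fl/fl, and the 3 controls were C57BL/6J, named Sox9+/+ in the study's methods, so that both groups carried the virus and Cre. The strain label of every library is C57BL/6. TurboRFP-positive cells were sorted 4 weeks after injection, and each library came from 1 mouse. The sort rested on TurboRFP alone, into lysis buffer, and the study's methods checked purity from cell type markers in the RNA rather than by a second sort. A normalized count is a read count divided by the size factor of its library. On this scale Sox9 averaged 5556 ± 881 in the controls against 58.2 ± 5.88 in the KO libraries (SD, n = 3 each), the direction of the genotype labels. Astrocyte markers fell too, as given below, so the fall of Sox9 is not a clean check of the labels. Depth ranged from 18242129 to 86906527 reads on genes, which makes 1 read worth between 0.395 and 1.58 normalized counts. The labels call all libraries olfactory bulb astrocytes. Defining markers of astrocytes were present in all of them, but all 9 listed were lower in KO, with a summed level of 491299 to 546056 in control and 35881 to 46290 in KO. The 10 microglia markers moved the other way, from between 140095 and 172581 to between 469588 and 576380.

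Jchain was close to undetected in control and abundant in KO. Control replicates 1 to 3 had 4.38, 0.688 and 3.15 normalized counts, and KO replicates 1 to 3 had 712, 1103 and 627. Each control value thus rests on 1 to 3 reads, and every KO library lay far above every control. Summed over libraries and scaled by depth, 6 control reads stood against 3923 KO reads, a ratio of 432 with a 95% counting interval from 198 to 1177 (exact, from the reads alone, without the spread between mice). The log2 fold change of normalized count + 1 was 7.88, and it ranged from 7.39 to 8.22 when 1 library at a time was left out.

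The stretch before each of 3 start sites is shown, for Jchain, for Prdm1 and for Pou2af1, a B-cell coactivator described below. All 3 genes were far higher in KO. Cd22 was too, and its window is described but not shown. Each line gives the 250 bases upstream of the RefSeq start site in GRCm38.p6, the RefSeq name of mm10, read 5′ to 3′ on the strand of the gene, at chr5:88527898-88528147 (minus) for Jchain, chr10:44458749-44458998 (minus) for Prdm1 and chr9:51213440-51213689 (plus) for Pou2af1. Capitals mark a match to 1 of 4 motifs.
Jchain: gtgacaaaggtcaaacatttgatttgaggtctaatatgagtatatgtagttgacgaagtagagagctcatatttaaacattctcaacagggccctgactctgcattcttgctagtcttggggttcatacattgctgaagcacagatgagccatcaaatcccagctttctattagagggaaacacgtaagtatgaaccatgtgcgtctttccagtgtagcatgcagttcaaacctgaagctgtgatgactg
Prdm1: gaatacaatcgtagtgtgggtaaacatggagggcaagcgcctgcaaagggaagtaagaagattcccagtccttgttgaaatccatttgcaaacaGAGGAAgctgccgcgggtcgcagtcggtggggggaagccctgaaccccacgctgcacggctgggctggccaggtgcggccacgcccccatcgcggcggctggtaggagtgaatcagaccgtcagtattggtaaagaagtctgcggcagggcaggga
Pou2af1: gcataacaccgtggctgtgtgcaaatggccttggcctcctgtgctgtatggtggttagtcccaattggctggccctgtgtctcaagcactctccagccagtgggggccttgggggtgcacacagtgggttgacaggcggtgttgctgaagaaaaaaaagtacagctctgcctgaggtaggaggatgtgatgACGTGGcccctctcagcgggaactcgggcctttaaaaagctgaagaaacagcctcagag

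The motifs, searched on both strands, were the octamer ATGCAAAT bound by OCT factors, GAGGAA of the Ets factor PU.1, GAAANNGAA of interferon regulatory factors and ACGTGG, the core of the XBP1 element. The octamer occurred in 1.61% of 27025 mouse promoters of this length, GAGGAA in 23.1%, GAAANNGAA in 7.16% and ACGTGG in 6.90%. None of the 4 was in the Jchain window. The Prdm1 window held 1 GAGGAA, starting 156 bases before the start site. That start site lies inside the longer annotated Prdm1 gene, at chr10:44437174-44528558 (minus), so the window is internal to the gene. The Pou2af1 window held 1 ACGTGG, starting 59 bases before the start site. Of the windows not shown, those of Cd22 and Xbp1, both called higher below, held none of the 4 motifs. The windows of Irf4, called higher, and Cd79a, not called, held 1 GAGGAA each. These started 19 and 140 bases before the start site. Of the Cd22 window 102 bases, and of the Cd79a window 116, lie in annotated exons of the gene. These matches are letters in a window and were not tested for binding. Promoters were found for 6 of the 9 genes, and those of Cd79b, Ms4a1 and Mzb1 were not.

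The neighbours of Jchain on chromosome 5 were looked at for a change across the region. Here and below, a gene was called at a limma adjusted p under 0.05 (Benjamini-Hochberg over all 18413 genes tested) and at least 1.5-fold. To its left lie Enam, 13759 bp away, Ambn and Amtn, which encode enamel matrix proteins. Enam had 6, 2 and 0 reads in control and 26, 32 and 10 in KO, and it was called higher (limma adjusted p = 0.016, log2 fold change 2.66). Ambn had 0 reads in every control and 4, 3 and 4 in KO. That is at least 2.42-fold higher if the controls together are given 3 reads. Ambn was also called (limma adjusted p = 0.034), but it passed the filter on low values through KO alone. The call of Ambn is therefore a description and no support. Amtn was not called, with 3, 0 and 0 reads against 4, 26 and 1. To the right, Utp3, a ribosome biogenesis gene 26564 bp away, rose by 0.98 on the log2 scale (-0.73 and lower when scaled to the microglia list), whereas Rufy3 (log2 fold change -0.27) and Grsf1 (0.53) stayed under 1.5-fold. Jchain overlaps no other listed gene.

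**Figure D1:**
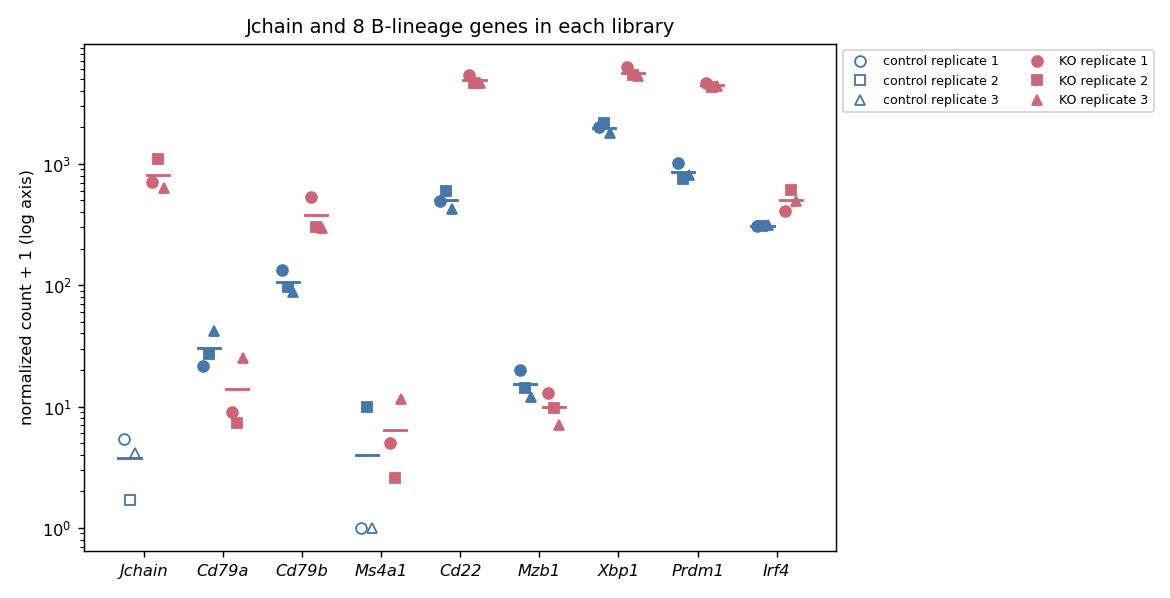
Normalized counts + 1 of Jchain and the 8 other genes (log axis) in each control library (blue) and KO library (red); symbols mark replicates 1 to 3, open symbols rest on 3 reads or fewer, and bars are means. Jchain, Cd79b, Cd22, Xbp1, Prdm1 and Irf4 have no overlap between groups, while Cd79a, Ms4a1 and Mzb1 do.

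Of the 8 other genes, 5 were higher in KO, none was lower and 3 were not called. Of all tested genes, 22.2% were called higher and 28.8% lower. The KO libraries were all above the controls in the same 5 genes, against 32.4% of all tested genes, and all below in none, against 34.7%. The 5 were Cd79b, Cd22, Xbp1, Prdm1 and Irf4. The median log2 fold change of the 8 was 1.40, beside -0.07 over all tested genes. The 3 that were not called were Cd79a, Ms4a1 and Mzb1, which were also the 3 lowest in KO. In these bulk samples, a change in the number of cells of a type and a change in RNA per cell cannot be told apart.

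The 2 chains of the B-cell receptor did not go together. Cd79b had 132, 94.97 and 86.7 normalized counts in control replicates 1 to 3 and 535, 303 and 296 in KO, with no overlap. It rose 3.62-fold (limma adjusted p = 0.00018 for a log2 fold change of 1.81 ± 0.27, SE), a call that was lost when scaled to the microglia list (0.11, adjusted p = 0.70). Cd79a had 20.5, 26.2 and 41.0 in control and 7.94, 6.32 and 24.3 in KO. The highest KO library of Cd79a lay within the control range, and the gene was not called (limma adjusted p = 0.066 for a log2 fold change of -1.295 ± 0.56, SE). It was called lower without KO replicate 3 (-1.84, adjusted p = 0.012) and with libraries at the same total, with Rn45s (adjusted p = 0.042) or without it (adjusted p = 0.031). The products of both genes form the signalling part of the receptor, and here their log2 fold changes had opposite signs.

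Cd22, the sialic acid receptor that restrains B-cell receptor signalling, rose most of the 8. Its normalized counts were 494, 593 and 424 in control and 5360, 4601 and 4646 in KO. The lowest KO library stood far above the highest control, and the mean rose 9.67-fold (limma adjusted p = 2.4e-08 for a log2 fold change of 3.28 ± 0.13, SE). Ms4a1 encodes CD20, a surface protein of mature B cells. It had 0, 13 and 0 reads in control and 4, 4 and 7 in KO, so that the groups overlapped and the depth-scaled ratio of 0.762 had a 95% counting interval from 0.338 to 1.74. All its control reads came from control replicate 2. The limma fit, in which each library counts alike, had the opposite direction and did not call it (1.302 ± 1.01 on the log2 scale, adjusted p = 0.29). Without control replicate 2 it was called higher (2.41, adjusted p = 0.042). Ms4a1 also overlaps 4930526L06Rik on the opposite strand, and no source used here states whether counting used strand.

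The 3 transcription factors of the plasma cell programme were all higher, although Xbp1 and Irf4 stood at -0.21 and -1.02 when scaled to the microglia list as described below. Prdm1 had 1011, 742 and 802 normalized counts in control and 4670, 4299 and 4404 in KO, a 5.23-fold rise (limma adjusted p = 8.1e-08 for a log2 fold change of 2.40 ± 0.12, SE). Xbp1 had 2001, 2171 and 1797 in control and 6269, 5356 and 5285 in KO, a 2.83-fold rise (1.502 ± 0.11, adjusted p = 7.7e-07). In both genes the 3 KO libraries stood together above the 3 controls. Irf4 moved least of the called genes, from 305, 308 and 314 to 408, 609 and 494, a 1.63-fold rise (0.68 ± 0.17, adjusted p = 0.0045). The Irf4 call was lost with every library brought to the same total (0.44, adjusted p = 0.068), and without KO replicate 2 its log2 fold change of 0.54 was under 1.5-fold. Mzb1, the assembly factor, had 19.0, 13.1 and 11.0 in control and 11.9, 8.68 and 6.08 in KO. These values overlapped and were not called (limma adjusted p = 0.28 for a log2 fold change of -0.65 ± 0.49, SE).

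Levels were also compared between genes per kilobase of exon, on the scale of normalized counts. In control, Xbp1 was highest at 612 ± 57.6, followed by Prdm1 at 153 ± 25.3, Cd22 at 99.9 ± 16.8, Cd79b at 73.0 ± 16.7 and Irf4 at 63.0 ± 0.871 (SD, n = 3). Jchain, at 1.09 ± 0.748, was above only Ms4a1, at 0.482 ± 0.835, and the spread of the pair overlapped. In KO the order was Xbp1 at 1735 ± 169, Cd22 at 966 ± 84.5, Prdm1 at 799 ± 34.3, Jchain at 323 ± 101, Cd79b at 264 ± 95.1 and Irf4 at 103 ± 20.6. Jchain thus came after Xbp1, Cd22 and Prdm1, and it did not differ from Cd79b beyond their spread. Cd79a at 8.82 ± 6.83, Mzb1 at 7.32 ± 2.41 and Ms4a1 at 0.872 ± 0.758 were last, and Cd79a and Mzb1 could not be ordered.

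A wider B-cell list moved in both directions, in counts not far from the shares over all genes. It holds 27 genes, Cd79a, Cd79b, Ms4a1 and Cd22 among them. Of these, 22 were listed in the libraries and 20 were tested. Among the 20, 6 were higher (Cd79b, Cd22 and Pou2af1 included), 4 lower and 10 not called, with a median log2 fold change of 0.33. Pou2af1 passed the filter on low values through KO alone, so its place in this count is a description and no support. Over all tested genes, 22.2% were higher and 28.8% lower. The antibody heavy and light chain constant genes looked for were not among the symbols of the libraries, so they could not be analysed. The defining factor Pax5 was near 0, with 1 read in KO replicate 3 and none elsewhere. Blk, a kinase of B cells, and Fcrl5 had at most 3 reads in any library. Fcrl1, a receptor-like B-cell surface protein, rose from 164 ± 48.2 to 618 ± 189 normalized counts (SD, n = 3 each; limma adjusted p = 0.00015, log2 fold change 1.90). Tnfrsf13b, which encodes the receptor TACI, rose by 1.41 and Bach2, a repressor of Prdm1 in B cells, by 1.05 on the log2 scale, but scaled to the microglia list they stood at -0.28 and -0.66, the second called lower. The lower genes were Ebf1, an early B-cell factor that other cell types express too (log2 fold change -2.42), Fcer2a (-1.71), Tnfrsf13c, which encodes the BAFF receptor (-1.68), and Vpreb3 (-1.53). The number of lower genes depended on single libraries: it was 6 without KO replicate 3, and 2 without control replicate 1 or 3 or without KO replicate 1 or 2.

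Pou2af1 was read in KO alone. This coactivator works with OCT factors at the octamer. It had 0 reads in every control and 26, 75 and 15 in KO, at least 25.5-fold higher if the controls together are given 3 reads. With no control reads, Pou2af1 passed the filter on the mean over the 6 libraries through KO alone. Its call (limma adjusted p = 3.3e-05) and its lack of overlap are therefore a description and no support. Its fitted log2 fold change depended on the pseudocount, from 2.63 with 5 to 8.02 with 0.1. In normalized counts the KO level was 26.1 ± 3.42 (SD, n = 3), well under that of Jchain.

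Plasma cell genes were split as well, in a list that again holds Xbp1, Prdm1, Irf4 and Mzb1. Apart from Jchain the list holds 22 symbols, of which 16 were present in the libraries, and all 16 were tested. Tent5c was present only under its older symbol Fam46c. Of the 16, 7 were higher, 2 lower and 7 not called, beside 22.2% higher and 28.8% lower over all tested genes. The median log2 fold change was 0.49. Slamf7, a surface receptor of plasma, NK and myeloid cells, had 206, 271 and 314 normalized counts in control and 9399, 4704 and 3676 in KO. All KO libraries were far above control (log2 fold change 4.39, adjusted p = 5.4e-07). Tnfrsf17, which encodes the plasma cell survival receptor BCMA, had 93.5, 28.9 and 14.2 in control and 196, 249 and 204 in KO (log2 fold change 2.62, adjusted p = 0.0018). Fam46c, an RNA poly(A) polymerase of plasma cells, rose by 2.40 and Edem1, which acts in the disposal of misfolded proteins, by 1.28 on the log2 scale. Sdc1, which encodes the plasma cell surface marker CD138, went the other way, with 348, 288 and 312 in control and 7.94, 16.6 and 16.7 in KO. It fell by 4.49 on the log2 scale (adjusted p = 1.2e-06), and Fkbp11, a folding enzyme of secretory cells, fell by 3.70 (adjusted p = 9.7e-06). Derl3, another secretory gene, had 19.0, 11.0 and 29.9 in control and 19.9, 28.0 and 18.2 in KO and was not called.

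Some genes of the secretory apparatus and of the unfolded protein response, in which XBP1 acts, rose. In a list of 22, 9 were higher, 0 were lower and 13 were not called, beside 22.2% higher and 28.8% lower over all tested genes. The median log2 fold change was 0.55. Scaled to the microglia list, 18 were lower and 0 higher, beside 76.1% and 1.39% of all tested genes. The KO libraries were all above the controls in 19 of the 22, against 32.4% of all tested genes, and 9 of these 19 were called. Sdf2l1 had the largest change (1.48), followed by Edem1 (1.28) and Atf6 (1.27), a sensor of unfolded proteins. Hspa5, the chaperone BiP, was the most abundant and rose from 14907 ± 2980 to 23998 ± 3253 normalized counts (SD, n = 3 each; limma adjusted p = 0.0028, log2 fold change 0.70). Sel1l, an abundant degradation factor, differed by 0.16 and was not called. With libraries scaled to the same total, 5 of the 22 were higher.

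Of the pre-B genes and the J chain partners that were tested, none was called higher. The genes of the antibody heavy chains that the J chain joins, Ighm and Igha, were not among the symbols of the libraries. Of 4 tested pre-B genes, none was higher and Igll1, a surrogate light chain, was called lower. It had 2, 5 and 2 reads in control and 0 in every KO library, at least 4.54-fold lower if the KO libraries together are given 3 reads. Igll1 passed the filter on the mean through control alone, so its call is a description and no support. Vpreb1 had 1, 13 and 0 reads in control and 4, 0 and 1 in KO. Pigr, the receptor that carries J chain-bearing antibody across epithelia, had 0, 1 and 0 reads in control and 0, 1 and 10 in KO and was not called (adjusted p = 0.34). Fcmr, a receptor for IgM, had at most 4 reads in any library. Cd5l, a protein that binds IgM pentamers, spread from 14.6 to 89.5 normalized counts in control and from 10.9 to 143 in KO.

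**Figure D2:**
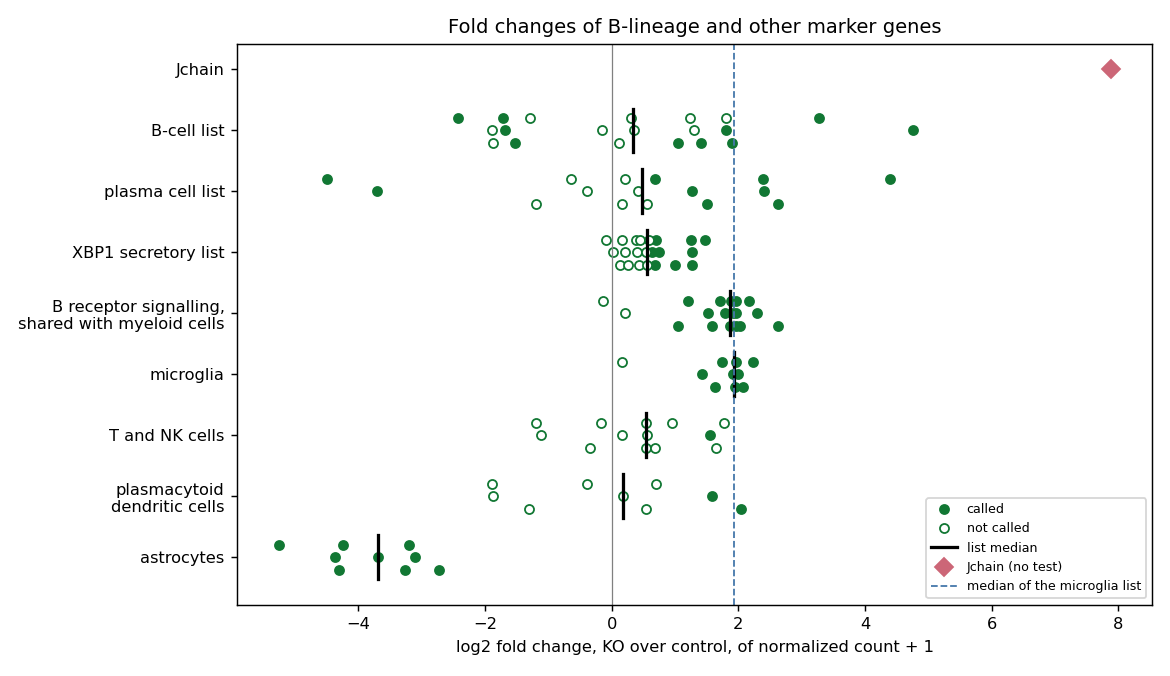
Log2 fold changes (KO over control, of normalized count + 1) of Jchain and of the tested genes of 8 lists, with called genes as filled and others as open circles, a black bar at each list's median and a dashed line at the median of the microglia list. The B-cell and plasma cell lists scatter on both sides of 0 (medians 0.33 and 0.49), the microglia list lies at 1.93 and Jchain stands apart at 7.88.

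Genes that B-cell receptor signalling shares with myeloid cells rose nearly as a whole. Of 18, 16 were higher and 0 lower, beside 22.2% and 28.8% of all tested genes, with a median log2 fold change of 1.87. Ptpn6, the phosphatase that CD22 recruits, rose by 2.30 and Blnk, an adaptor below the receptor, by 2.18 on the log2 scale. The abundant kinase Lyn rose from 11625 ± 357 to 26799 ± 1278 normalized counts (SD, n = 3 each). Cd81 differed by -0.14 and was not called. Of 8 genes around CD22, among them its sialyltransferase and other sialic acid receptors, 7 were higher, led by Ptpn6, Siglech (2.23) and Cd33 (2.14). Scaled to the microglia list, 1 was higher and 1 lower, beside 1.39% and 76.1% of all tested genes. Siglech is itself 1 of the 10 genes of the microglia list.

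The families of Irf4 and Ms4a1 put these members in context, with 22.2% of all tested genes higher and 28.8% lower. Scaled to the microglia list, those shares were 1.39% and 76.1%. Of 9 interferon regulatory factor genes, 8 were higher (1 higher and 3 lower when scaled to the microglia list), and Irf4, at 0.68, had the smallest change of the 9. Irf1 rose by 2.34, Irf8 by 2.10 and Irf5 by 1.99 on the log2 scale. Of 12 tested Ms4a genes, 5 were higher and 1 lower, and scaled to the microglia list 0 and 1. Ms4a6d, a myeloid member, rose from 1271 ± 240 to 4405 ± 804 normalized counts and Ms4a7, a macrophage member, from 472 ± 75.0 to 1960 ± 874 (SD, n = 3 each), while Ms4a1 stayed at a few reads. In a list of 15 factors of the B-cell and plasma cell network, 13 were tested and 7 were higher, Pou2af1 among them. The 2 lower were Ebf1 and Id3 (-2.10). Scaled to the microglia list, 1 was higher (Pou2af1, read in KO alone) and 6 lower. The most abundant of these factors, Mef2c (1.56), Ikzf1 (1.87) and Irf8, are also factors of microglia.

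Markers of other blood and brain cells were measured beside these genes, with 22.2% of all tested genes higher and 28.8% lower. Of the 10 microglia markers, 9 were higher, with their median at 1.93 on the log2 scale and their summed level 3.48-fold higher in KO. The other one, Fcrls, named here after its value was seen, overlapped between groups (0.16). Of 13 tested T and NK cell genes, 1 was higher (Nkg7, from 2.62 ± 1.91 to 8.86 ± 1.90 normalized counts), and their summed level was 74.5 to 184 in control and 111 to 141 in KO. Of 9 genes of plasmacytoid dendritic cells, which share several genes with plasma cells, 2 were higher, Bst2 and Cd300c, and the summed level was 13951 to 15567 in control and 12644 to 15989 in KO. Most of that sum was Tcf4, a widely expressed factor, at a mean of 13220 in control and 10145 in KO, while Bst2 went from 1189 ± 364 to 3569 ± 1133 (SD, n = 3 each). Of 9 border macrophage genes, 2 were higher and 5 lower. Of 7 neutrophil genes, 5 were lower, and control replicate 2 stood apart with a summed level of 6453 against 723 at the lowest control. That library also held the 13 reads of Ms4a1 and of Vpreb1. Of 9 neuron genes, 8 were lower. Microglia markers moved with the genes that rose, and their part in those rises was not tested.

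To show how the B-lineage genes compare with that change, all libraries were also divided by the geometric mean of the 10 microglia markers, an alternative chosen after seeing the data. It moves the median of all genes by -1.58 on the log2 scale, and of 18670 genes tested 1.39% were then higher and 76.1% lower. Of the 8 genes, 2 were higher on this scale, Cd22 (1.57, standard error 0.17, adjusted p = 1.7e-06) and Prdm1 (0.69, standard error 0.14, adjusted p = 0.00052). Cd79b (0.11, standard error 0.27) and Xbp1 (-0.21, standard error 0.15) were not called. Cd79a (-2.87), Mzb1 (-2.19) and Irf4 (-1.02) were lower. Jchain had a log2 fold change of 6.43. Of the other B-cell and plasma cell genes, Pou2af1 (3.94, with no control reads), Slamf7 (2.68) and Fam46c (0.69) were higher. Tnfrsf17 (0.94) and Fcrl1 (0.19) were not called. Of the 18 signalling genes shared with myeloid cells, 2 were higher and 2 lower. In the B-cell list 2 genes were higher (Cd22, and Pou2af1 as a description only) and 10 lower. In the plasma cell list the counts were 3 and 10, and in the XBP1 secretory list 0 and 18.

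**Figure D3:**
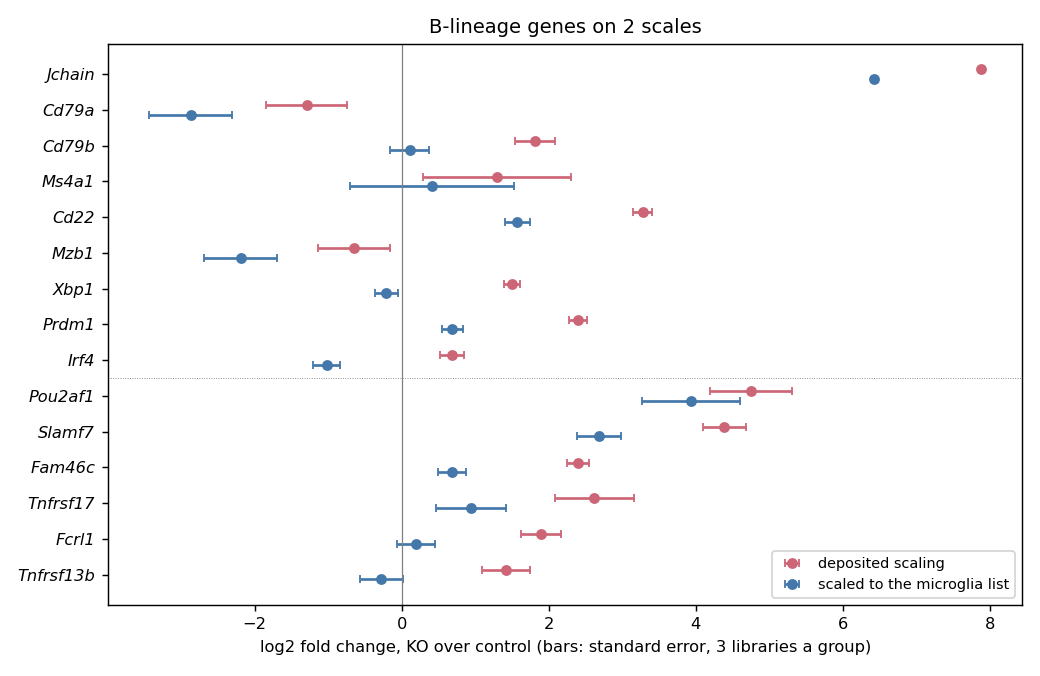
Log2 fold changes (KO over control) of the 9 genes and, under the dotted line, 6 further B-cell and plasma cell genes, with the deposited scaling (red) and scaled to the microglia list (blue); bars are standard errors over 3 libraries a group, and Jchain has none because it was not tested. On the second scale Jchain stands at 6.43, while Cd79b, Xbp1, Fcrl1 and Tnfrsf13b lie close to 0.

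The genes whose profiles over the 6 libraries were most like that of Jchain were in none of the B-cell and plasma cell lists. Likeness was the root mean square distance between log2(normalized count + 1) profiles, each centred on its own mean. The nearest were the olfactory receptor gene Olfr98 (distance 0.771), BC018473 (0.908) and the histocompatibility genes H2-M2 (1.45) and H2-Aa (1.47), followed by Cd74 (1.51), which encodes the chaperone of class II molecules. B cells and myeloid cells both express H2-Aa and Cd74. With 6 libraries in 2 groups, the distance reflects mainly the size of the group difference. It also depended on the pseudocount: with 5, BC018473, H2-Aa and Cd74 stayed among the nearest 5, and Olfr98 and H2-M2 ranked 9 and 8. H2-Aa had 1793, 1244 and 1389 normalized counts in control and 85369.5, 40282 and 47312 in KO. Its highest library was KO replicate 1, as for the other 4 genes, whereas the highest of Jchain was KO replicate 2.

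**Figure D4:**
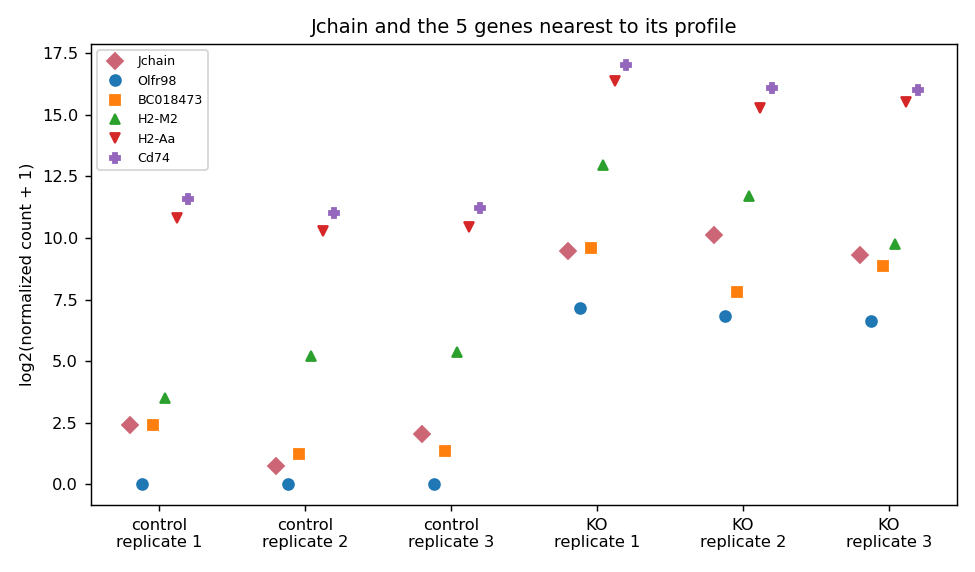
Log2(normalized count + 1) of Jchain and of the 5 genes with the nearest centred profiles in each library. All 6 genes are low in the 3 controls and high in the 3 KO libraries, H2-Aa and Cd74 from a much higher control level, and Jchain is highest in KO replicate 2.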

How the data were processed

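RNA was extracted from sorted TurboRFP-positive cells, and libraries were made from 10 ng of total RNA with the Trio RNA-Seq System. The authors aligned reads to mm10 with STAR (2.5.0a per the labels), built the count matrix in GenomicAlignments and took normalized counts from DESeq2 (1.20.0). No source used here gives the annotation or the strandedness. The deposited signal values are named RPM, but 100% of them are whole multiples of 1 step per library within 0.01 read, and the inverse steps equal the median-of-ratios size factors, so they are read counts divided by a size factor.

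Genes with a mean of at least 1 (18413, with 6008 left out) were tested in R 4.3.3 with limma 3.58.1, fitted to log2(normalized count + 1) with genotype only, trended variance, two-sided, with Benjamini-Hochberg adjustment. This scale understates the fold of low genes. Calls needed 1.5-fold, as in the study, and an adjusted p under 0.05. The recovered reads gave 4340 genes higher and 5000 lower with edgeR 4.0.16 (TMM) and 3994 and 5100 with DESeq2 1.42.0, against 4090 and 5299. For a single gene, an exact permutation test of 3 against 3 libraries cannot go below 0.1. Depth limits the genes with few reads, and the counting interval and the floor of 3 reads cover counting error only.

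The 9 genes and all lists were chosen with earlier results of these data known, and Jchain was chosen by its rise, so it has no test. Any gene of the B-cell, plasma cell, pre-B and J chain partner lists could be named. From each other list, the 3 with the highest mean and the 3 with the largest change among those called could be named, with the 3 neighbours on each side of Jchain and the 5 genes nearest to its profile. Lengths are exon unions of GENCODE M21. The values of some single genes that this rule would name are left out. Tests were run on simulated libraries with few changed genes and a single dispersion, checked for recovery and sign. That setting does not check the calls where as many genes change as here. Alternatives covered pseudocount, filter, scaling, tool, block, trend and leaving out each library.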

Additional observations from a re-analysis of the deposited data

How the results depend on the processing

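Relative to the deposited scaling, the same total moved the median log2 fold change of all genes by -0.24, the same total without the ribosomal gene Rn45s by -0.31 and quantile normalization by 0.27. Against 5 of the 8 genes higher and 0 lower, 1 was lower (Cd79a) under both total scalings, the replicate block and the unadjusted p, and leaving out 1 library gave 4 to 6 higher and 0 to 1 lower. Scaled to the microglia list, which was chosen after seeing the data, 2 were higher and 3 lower. The same scaling gave 2 higher and 10 lower in the B-cell list (6 and 4), 3 and 10 in the plasma cell list (7 and 2) and 0 and 18 in the XBP1 secretory list (9 and 0). Of all tested genes, 1.39% were higher and 76.1% lower on that scale. Pou2af1, read in KO alone, is among the higher genes of the B-cell list on both scales. In the B-cell list, 2 were lower with a pseudocount of 0.1, with edgeR under either factor and with DESeq2, 1 with quantile normalization and 2 to 6 without 1 library. In the XBP1 secretory list, 5 were higher under both total scalings. Leaving out 1 library gave 6 to 8 higher in the B-cell list, 7 to 8 higher and 2 to 3 lower in the plasma cell list, and 8 to 12 higher in the XBP1 secretory list. Mzb1 turned to 0.15 with quantile normalization (adjusted p = 0.82 from limma), and scaled to the microglia list Xbp1 turned to -0.21, Irf4 to -1.02 and Tnfrsf13b to -0.28. Beyond the scaling itself, the causes were not tested. Of the values for single genes, 338 kept direction and side of the threshold, 8 gained the call, 6 lost it, 4 reversed and 3, all about Jchain and with no test, moved. The 338 include values of Jchain, which has no threshold and counted as kept where it moved by less than its SD within groups. Of the counts, 136 stayed within 1.5 times and 24 moved. Replicate numbers paired no libraries (correlation of deviations -0.051, -0.013 and -0.013), and the replicate block gave 5 of the 8 higher and 1 lower, put 5 genes of the B-cell list lower and changed the call of none of the other 16 genes it was tabulated for. Genes at a few reads, such as Ms4a1 and Pax5, are limited by depth.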

Other observations

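Early myeloid genes were read almost only in 1 control library. Mpo and Elane, the granule enzymes of neutrophil precursors, had 301 and 91 reads in control replicate 2, none in the other controls, and 0 and 1 reads in the KO libraries together. Ms4a3, a gene of granulocyte precursors that was named after its values were seen, had 23 reads in that library and 0 in the other 5. S100a8 had 213, 1721 and 344 normalized counts in control and 173, 55.3 and 77.5 in KO.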
